A study of Mus musculus with 6 samples.

Results

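The miR-30 family was described in renal cortex of control mice and of mice under sodium restriction with captopril. Its members were taken by name, as the array probes mmu-miR-30a, mmu-miR-30b, mmu-miR-30c, mmu-miR-30d and mmu-miR-30e without their star strands. They made 5 of the miRNAs on the array, of which 197 were tested and 402 were too dim to test. The control group held 3 untreated C57Bl6 mice. The treated group held 3 C57Bl6 mice that were kept for 10 days on a 0.05% sodium diet, with 0.5 g/L captopril to drink. Captopril blocks the enzyme that makes angiotensin II. Each group had 2 males and 1 female, the females being control 3 and treated 1, and all mice were 3.5 months old apart from treated 1 at 5 months. Control 1, control 3 and treated 2 were stained with Cy3, and control 2, treated 1 and treated 3 with Cy5.

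A miRNA guides the silencing complex to messenger RNAs that pair with its seed, and miRNAs with the same seed are expected to share many targets. The miR-30 family is abundant in kidney, where it is expressed in podocytes and tubules. In mouse podocytes it is known to restrain Notch1 and p53, in Xenopus it is needed for the pronephros and acts on the transcription factor Lhx1, and in heart it represses connective tissue growth factor. In mouse the family comes from 3 pairs of neighbouring hairpin genes, which are Mir30a with Mir30c-2 on chromosome 1, Mir30e with Mir30c-1 on chromosome 4 and Mir30b with Mir30d on chromosome 15. In the GRCm38.p6 gene table no other miRNA gene lies between the genes of a pair, and the protein-coding gene Nfyc, a subunit of the NF-Y transcription factor, spans both genes on chromosome 4.

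The members are shown by their mature sequences because they are read below in subgroups defined by sequence. Whether sequence accounts for any difference between the subgroups was not tested. RefSeq sequences on build GRCm38.p6 were matched for 3 of the 5 members, and for these the array's target was identical to the mature 5p strand. Capitals mark the seed, bases 2 to 8 from the 5′ end. MiR-30a lies at chr1:23272274-23272295 on the plus strand, miR-30e at chr4:120772660-120772681 on the minus strand, and miR-30c, made from 2 genes, at chr1:23291714-23291736 on the plus strand and chr4:120769584-120769606 on the minus strand.
miR-30a: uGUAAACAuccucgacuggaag
miR-30e: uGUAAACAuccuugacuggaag
miR-30c: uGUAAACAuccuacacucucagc
All 3 were identical over their first 12 bases. Counted from the 5′ end, miR-30a and miR-30e differed only by C13U (miR-30a first). MiR-30a and miR-30c differed by C13A, G14C, G18C, G19U and A20C, so they parted outside the seed. MiR-30d resembles miR-30a and miR-30e in its 3′ part, and miR-30b resembles miR-30c, and the family was read in these 2 subgroups. The probes of such close relatives can share signal, and how much they did was not tested.

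Of the RefSeq mature miRNAs outside the family, miR-384-5p, at chrX:105344332-105344354 on the minus strand, had the same seed and a probe on the array.
miR-384-5p: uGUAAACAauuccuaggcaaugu
It shared its first 8 bases with miR-30a and differed at 10 of 22 compared positions. It was above background in 2 of 6 samples and was not tested. In treated 1 its 5 spots had an SD of 1.36 on the log2 scale, against at most 0.174 for any member in any sample.

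All 5 members were above background in all 6 samples, and all were tested among 197 miRNAs. Above background means a mean log2 spot intensity more than 3 SD over the mean of the sample's empty spots, and the tested miRNAs passed this in at least 3 of the 6 samples. The tissue label was checked with miRNA markers. Of 6 kidney cortex markers 5 were above background in all 6 samples, as were 2 of 2 smooth muscle, 1 of 2 endothelial, 2 of 3 red cell and 2 of 5 leukocyte markers. Of markers of other organs, 1 of 3 for brain, 0 of 1 for liver and 0 of 5 for striated muscle were above background in all 6, while 2 for brain and 1 for liver were bright enough to be tested. Control 3 stood apart from the other samples, with a median correlation of 0.917 to them over the 197 miRNAs, against 0.965 to 0.978 for each other sample. Control 2 and treated 2 had the fewest miRNAs above background, 127 and 132 against 191 to 229 in the others. Results are therefore given with and without control 3. The cortex is a mixture of cells, so fewer cells of a type and less RNA per cell cannot be told apart.

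The members were bright and evenly spotted. Mean spot intensity ran from 280 for miR-30e in control 2 to 23356 for miR-30c in treated 1, on a linear scale whose brightest spot of any kind was 59306. The lowest signal over background was also that of miR-30e, at 3.67 times the median empty spot in treated 2. The SD over the 5 spots of a member in a sample ranged from 0.0138 to 0.174 on the log2 scale, with a median of 0.0907. The spread between control mice, given next, was several times larger.

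The plot of the members by sample shows their levels, on the log2 scale after background correction and quantile normalisation, and levels of different probes are not ranked against each other. MiR-30a lay at 12.23, 11.33 and 13.75 in controls 1, 2 and 3 and at 11.79, 11.79 and 12.23 in treated 1, 2 and 3. The 3 treated samples sat inside the range of the controls, whose highest and lowest samples differed by 2.42. MiR-30e, which differs from miR-30a by 1 base, varied most, at 11.14, 9.80 and 13.39 in controls 1, 2 and 3 and at 10.58, 10.34 and 11.20 in treated 1, 2 and 3. Its control samples spanned 3.58 and its treated samples 0.86. MiR-30d lay at 11.45, 11.20 and 12.23 in controls 1, 2 and 3 and at 11.45, 11.33 and 11.68 in treated 1, 2 and 3. It was the steadiest member among the controls, with an SD of 0.54.

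**Figure D1:**
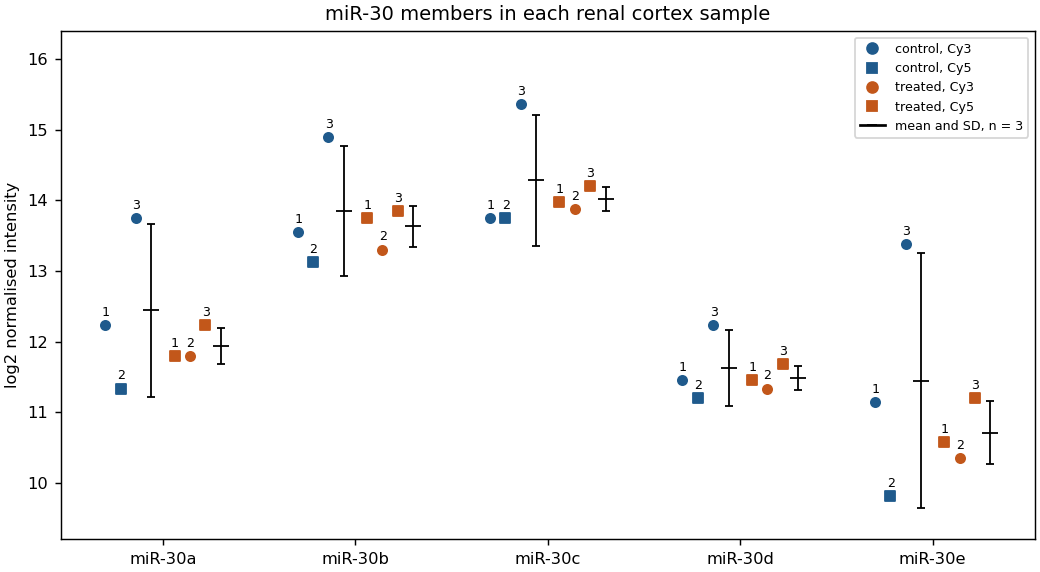
Log2 normalised intensity (vertical axis) of the 5 miR-30 members in each sample, with control samples in blue, treated in orange, circles for Cy3, squares for Cy5, the replicate number beside each point, and bars for the mean and SD of 3 samples. Control 3 is the highest sample and control 2 the lowest or level with the lowest for each member, and the treated samples lie between them.

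The other subgroup had the same highest sample, but not the same order between: control 1 lay above treated 1 for miR-30a and miR-30e and below it for miR-30b and miR-30c. MiR-30b lay at 13.55, 13.13 and 14.89 in controls 1, 2 and 3 and at 13.75, 13.30 and 13.84 in treated 1, 2 and 3. MiR-30c, which is made from hairpins on both chromosome 1 and chromosome 4, lay at 13.75, 13.75 and 15.36 in controls 1, 2 and 3 and at 13.98, 13.88 and 14.20 in treated 1, 2 and 3. Every member was thus highest in control 3 and, with a tie for miR-30c, lowest in control 2, and the groups overlapped for all 5. Over all 197 miRNAs, 41.1% were highest in control 3, 24.4% were lowest in control 2 and 16.2% were both. In both groups the sample numbered 3 was the highest and the sample numbered 2 the lowest, ties counted, for 5 of 5 members and for 19.3% of tested miRNAs. The SD among controls exceeded that among treated samples for 5 of 5 members and for 72.1% of tested miRNAs. The median SD of the members was 0.93 among controls and 0.26 among treated samples, against 0.38 and 0.26 over all tested miRNAs. The difference in spread between groups was not tested.

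How firmly this order holds differed between the subgroups. MiR-30a, miR-30d and miR-30e were highest in control 3 in the spot intensities, after quantile normalisation, after cyclic loess, after both 75th percentile scalings and in the authors' processed values. MiR-30b and miR-30c were highest in control 3 after quantile normalisation, after cyclic loess and in the processed values, but in treated 1 by spot intensity and in treated 3 after scaling to the 75th percentile of all probes. After scaling to the 75th percentile of the probes above background in all 6 samples, miR-30b was highest in treated 3, and miR-30c was highest in control 2 and lowest in control 3. In the spot intensities miR-30c read 19669 in control 3, against 20309 in control 1 and 23356 in treated 1, whereas miR-30a read 11644 in control 3, against 6629 and 4280. In the processed values miR-30e read 6682 in control 3, 2063 and 837 in the other controls, and 1548, 1163 and 2390 in treated 1, 2 and 3. The position of control 3 above the rest therefore held for miR-30a, miR-30d and miR-30e on each scale examined, and for miR-30b and miR-30c on some.

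Whether the family changes in cortex while the renin system is stimulated by low sodium and captopril was asked by setting the treated against the control mice. No member passed. In limma with terms for group and dye, 0 of 5 members had an adjusted p under 0.05, as did 0% of the 197 miRNAs tested, and at an unadjusted p under 0.05 there were 0 members against 0.508% of tested miRNAs. Each member had an adjusted p of 0.995. MiR-30a averaged 12.44 ± 1.22 (SD, n = 3) in the controls and 11.94 ± 0.26 (n = 3) under treatment, and its dye-adjusted difference was -0.26 (SE 0.61, 95% interval -1.79 to 1.27). MiR-30e averaged 11.44 ± 1.81 and 10.71 ± 0.45, with a difference of -0.42 (SE 0.91, interval -2.69 to 1.86). MiR-30d averaged 11.63 ± 0.54 and 11.49 ± 0.17, with a difference of -0.08 (SE 0.35, interval -0.94 to 0.79). The interval of miR-30d alone lay within 2-fold either way, as did that of 52.8% of tested miRNAs, so changes of over 2-fold lay inside the intervals of the other 4 members. These intervals do not use the sample numbers as pairs, and the SEs with such pairs are given in the closing section.

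MiR-30b averaged 13.86 ± 0.92 (SD, n = 3) in the controls and 13.63 ± 0.29 (n = 3) under treatment, a difference of -0.12 (SE 0.53, interval -1.45 to 1.20). MiR-30c averaged 14.29 ± 0.93 and 14.02 ± 0.17, a difference of -0.17 (SE 0.52, interval -1.47 to 1.12). The median of the 5 differences was -0.17, against -0.01 over all tested miRNAs. Without control 3 all 5 differences lay above 0, between 0.16 for miR-30d and 0.28 for miR-30e, with a median of 0.24 against 0.03 over all tested miRNAs and an adjusted p of 0.997 in limma for each member. Without treated 2 they also lay above 0, between 0.34 for miR-30c and 1.09 for miR-30e. The treated samples left were both Cy5, so with the dye term this fit compared only Cy5 samples, control 2 with treated 1 and 3. The sign of the family's difference thus turned with control 3 left out, and with the comparison reduced to Cy5. No group of samples stood clear of the other for any member. This held for 4.57% of tested miRNAs, a share too small to set 5 members apart from it.

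The dyes gave opposite signs. Within Cy3, treated 2 lay below the mean of controls 1 and 3 by 1.20 for miR-30a, 0.92 for miR-30b, 0.68 for miR-30c, 0.51 for miR-30d and 1.92 for miR-30e on the log2 scale. Within Cy5, the mean of treated 1 and 3 lay above control 2 by 0.68, 0.67, 0.34, 0.36 and 1.09 for the same members in that order. Same-numbered samples carried opposite dyes. Their empty spots correlated at a Spearman rho of 0.494, 0.529 and 0.356 for numbers 1, 2 and 3, against -0.011 to 0.418 for other numbers, and whether they shared a 2-colour array was not tested. Each within-dye value sets a single mouse against 2, and the signs also differed for 76.6% of all tested miRNAs. Among pairs of same-numbered samples, miR-30a differed by -0.44, 0.46 and -1.52 in pairs 1, 2 and 3, and miR-30e by -0.56, 0.54 and -2.18. MiR-30b differed by 0.20, 0.18 and -1.05, and miR-30c by 0.22, 0.12 and -1.16. MiR-30d was level in pair 1 and differed by 0.13 and -0.56 in pairs 2 and 3. No member went the same way in all 3 pairs, whereas 14.2% of tested miRNAs were higher and 16.2% lower in treated samples in all 3.

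**Figure D2:**
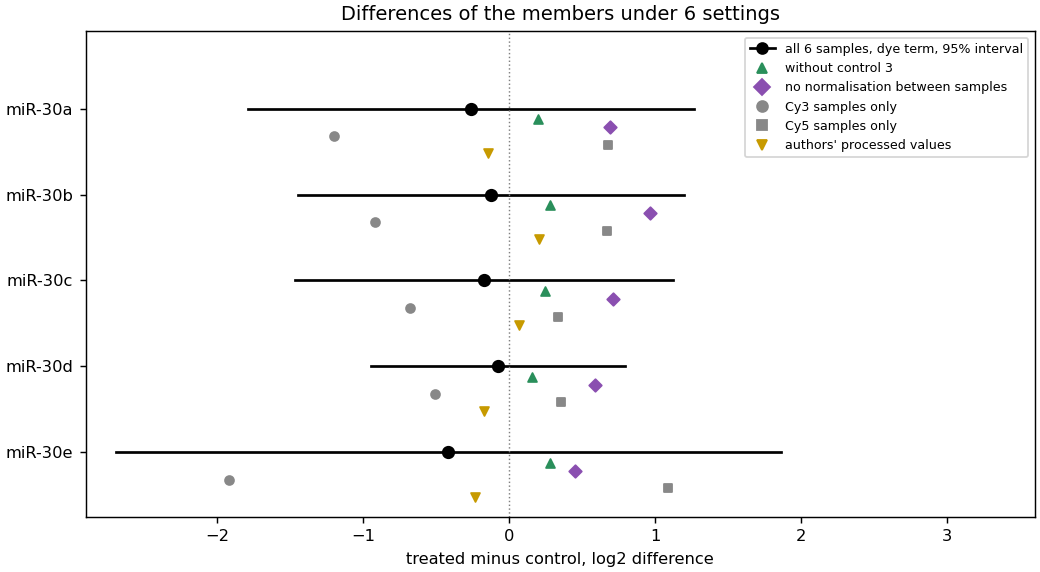
Treated minus control log2 difference (horizontal axis) of each member, as the dye-adjusted value of all 6 samples with its 95% interval (black), and under 5 other settings (coloured and grey symbols). Every interval crosses 0, and each member has values on both sides of 0 among the settings.

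The members varied together over the samples, with a strength that depended on the scaling. After quantile normalisation the Pearson correlation between 2 members over the 6 samples ran from 0.932 for miR-30a with miR-30c to 0.998 for miR-30a with miR-30e, and the median over all pairs of tested miRNAs was 0.001. These correlations share the samples, the quantile step and the position of control 3, and are a description. Without control 3 the 10 correlations ran down to 0.465, again for miR-30a with miR-30c, while miR-30a with miR-30e kept 0.988 over 5 samples. Under 6 scalings, counting none and the processed values, the lowest correlation among miR-30a, miR-30d and miR-30e was never under 0.975. The correlations of miR-30b and miR-30c with those 3 were 0.932 to 0.986 after quantile normalisation and 0.816 to 0.921 without normalisation, but -0.474 to 0.346 after scaling to the 75th percentile of the probes above background in all 6 samples. The correlation of miR-30b with miR-30c was 0.959 after quantile normalisation, 0.781 after cyclic loess and 0.231 after that last scaling. A high correlation under all 6 scalings was thus seen among miR-30a, miR-30d and miR-30e, and neither between miR-30b and miR-30c nor between the subgroups. How much signal the probes of these close relatives share was not tested.

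A difference between 2 members within a sample is untouched by a single scaling factor for that sample, though quantile normalisation can move it, and only its change between samples is read here. The mean of miR-30b and miR-30c less the mean of miR-30a, miR-30d and miR-30e was 2.05, 2.66 and 2.00 in controls 1, 2 and 3 and 2.59, 2.43 and 2.32 in treated 1, 2 and 3. It averaged 2.24 ± 0.37 (SD, n = 3) in the controls and 2.45 ± 0.14 (n = 3) under treatment, a difference of 0.21 that lay within the spread of the controls (exact two-sided permutation test, p = 0.40, where 0.10 is the smallest p the design allows). The difference was 0.41 within Cy3, -0.20 within Cy5, 0.10 without control 3, 0.02 in males only and 0.54 without normalisation or with either 75th percentile scaling. Neither this comparison nor any of the 10 pairs of members compared one by one could reach 0.05 with 3 mice against 3, and the smallest p of the pairs was 0.30 (exact permutation tests, smallest adjusted p = 0.875). MiR-30c less miR-30e, both of which have a hairpin on chromosome 4, was 2.61, 3.95 and 1.98 in controls 1, 2 and 3 and 3.40, 3.53 and 3.00 in treated 1, 2 and 3. Without normalisation it was 2.43, 4.61 and 1.17 in control and 3.64, 3.61 and 2.99 in treated samples, so control 2 was again the highest and control 3 the lowest. The Mir30c-1 and Mir30e hairpins lie 2983 bases apart, but miR-30c is also made on chromosome 1, and the array does not tell its 2 sources apart. MiR-30b less miR-30d, from the chromosome 15 pair, was 2.10, 1.92 and 2.66 in control and 2.31, 1.97 and 2.17 in treated samples after quantile normalisation. Here control 3 was the highest, but it was the lowest without normalisation, at 1.21 against 1.84 to 2.60 in the other samples.

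The star strands, the partner strands of the same hairpins, did not all follow the members. They are shown because the samples of miR-30a* differ in order from those of its guide. The array held 5 of them, and RefSeq sequences were matched for 4, of which the 2 with the highest mean signal follow, with bases 2 to 8 in capitals.
miR-30a*: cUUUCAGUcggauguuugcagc
miR-30e*: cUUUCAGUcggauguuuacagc
MiR-30a* lies at chr1:23272315-23272336 on the plus strand, in the hairpin of miR-30a, and miR-30e* at chr4:120772618-120772639 on the minus strand. MiR-30a* lay at 9.67, 9.22 and 9.58 in controls 1, 2 and 3 and at 10.08, 9.47 and 10.08 in treated 1, 2 and 3. Control 3 was not the highest sample of this strand, whereas it was that of miR-30a. MiR-30e* lay at 8.84, 7.56 and 9.44 in controls 1, 2 and 3 and at 9.15, 8.46 and 9.32 in treated 1, 2 and 3. This order was that of miR-30e with control 1 and treated 1 swapped. MiR-30c-2* was above background in all 6 samples, and miR-30b* and miR-30c-1* in 4, never by more than 3.03 times the median empty spot for any of these 3. The Pearson correlation with the family mean was 0.177 for miR-30a*, 0.727 for miR-30e* and 0.776 for miR-30b*. It was 0.681 for miR-30c-1* and 0.165 for miR-30c-2*. Without control 3 the values were 0.850, 0.936, 0.926, 0.171 and 0.031 in the same order, so the low value of miR-30a* rested on control 3. None of the 5 star strands passed in limma (adjusted p of 0.995 each), and none had an unadjusted p under 0.05.

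**Figure D3:**
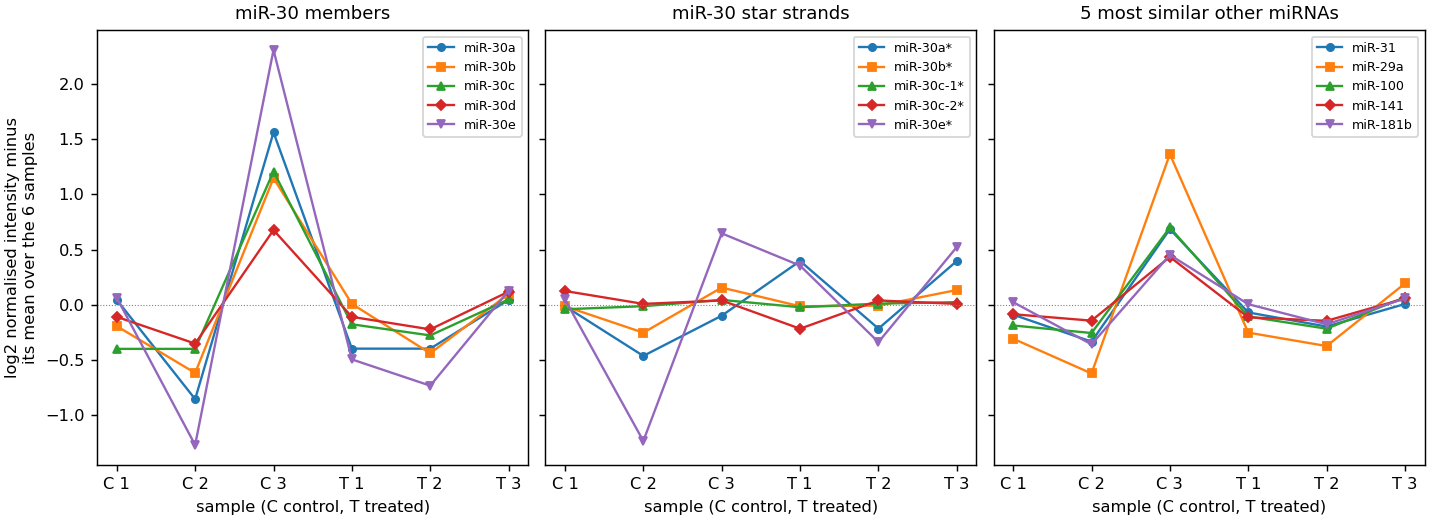
Log2 normalised intensity minus the miRNA's own mean over 6 samples (vertical axis) by sample (horizontal axis), for the 5 members, the 5 star strands and the 5 other miRNAs most similar to the family. The members and the similar miRNAs peak in control 3, which miR-30a* and miR-30c-2* do not.

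Within a sample, miR-30a less miR-30a* was 2.56, 2.11 and 4.17 in controls 1, 2 and 3 and 1.71, 2.32 and 2.15 in treated 1, 2 and 3. MiR-30e less miR-30e* was 2.29, 2.24 and 3.94 in control and 1.43, 1.88 and 1.88 in treated samples. For both hairpins control 3 stood above all other samples. Without normalisation the same differences were 3.48 and 3.28 in control 3, against 1.81 to 2.36 and 1.57 to 2.23 in the other samples. In the processed values the ratio of miR-30a to miR-30a* was 18.1 in control 3 and 3.14 to 4.85 elsewhere. That of miR-30e to miR-30e* was 4.96, 6.86 and 10.5 in controls 1, 2 and 3. In treated 1, 2 and 3 it was 2.73, 3.83 and 3.91. MiR-30e* was dim in control 2 and treated 2, at 1.45 and 1.64 times the median empty spot, so its ratios there rest on a weak signal. For miR-30e every treated sample lay below every control in the processed values and after quantile normalisation. Without normalisation the groups overlapped, at 1.74 in control 2 and 2.23 in treated 3. On the first 2 of these scales the groups overlapped for miR-30a, miR-30b and miR-30c less their star strands. How often hairpins outside the family split the groups was not examined, so the split of miR-30e has no rate to be set against. MiR-30b and miR-30c less their dim star strands were also highest in control 3 after quantile normalisation, as were their ratios in the processed values. Without normalisation they were highest in treated 1 or treated 3. Among 17 other hairpins with both strands tested, 35.3% had their largest guide less star difference in control 3 and 29.4% their smallest. This comparison was chosen after its values were seen and is given without a test.

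**Figure D4:**
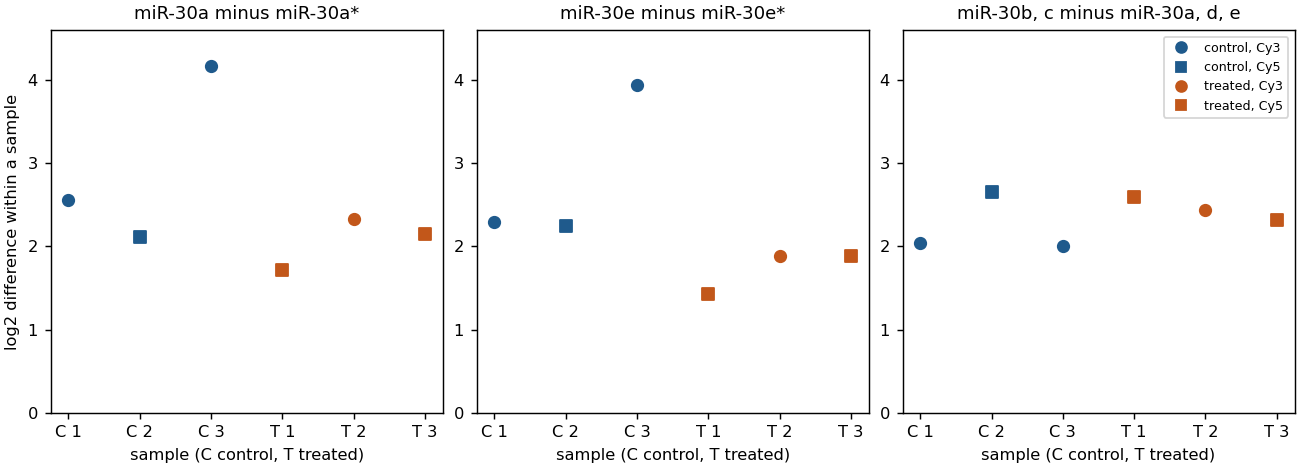
Log2 difference within a sample (vertical axis) for miR-30a less its star strand, miR-30e less its star strand, and the mean of miR-30b and miR-30c less that of miR-30a, miR-30d and miR-30e, by sample. Control 3 stands at 4.17 and 3.94 in the first 2 panels, above the other samples, while the groups overlap in the third.

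The 5 tested miRNAs outside the family most similar to its mean level over the 6 samples were miR-31 (Pearson r = 0.996), miR-29a (0.990), miR-100 (0.980), miR-141 (0.979) and miR-181b (0.962), and the median over 192 other tested miRNAs was 0.171. MiR-29a, of a family known to repress collagens, lay at 12.89, 12.57 and 14.56 in controls 1, 2 and 3 and at 12.94, 12.82 and 13.39 in treated 1, 2 and 3. MiR-141, of the epithelial miR-200 family, lay at 6.69, 6.63 and 7.21 in controls 1, 2 and 3 and at 6.66, 6.63 and 6.83 in treated 1, 2 and 3. That miR-29a and miR-141 were highest in control 3 follows from how they were chosen, since the family mean is highest there. The levels of miR-141, and of miR-31 at 6.31 to 7.33, were low on this scale. MiR-384-5p, above background in 2 of 6 samples, read 6.42 to 6.77. Without control 3 the 5 correlations ran from 0.835 to 0.977 over 5 samples. None of the 5 passed in limma (adjusted p of 0.995 each).

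Kidney epithelial miRNAs did not all follow the family. Of 10 listed kidney epithelial miRNAs, all were tested, 0 passed in limma, 5 lay above and 5 below 0, and the median difference was 0.03. Their median SD among controls was 0.42, 1 was lowest in control 2 and 5 were highest in control 3. The brightest, miR-10b and miR-10a of the Hox clusters, differed by 0.17 (95% interval -0.56 to 0.90) and 0.45 (-1.03 to 1.93), with an adjusted p of 0.995 each. The median correlation between 2 of the 10 was -0.643, against 0.968 between miR-30 members. The 10 were thus not of one kind, and miR-141, which is on this list, was among the 5 miRNAs most similar to the family (r = 0.979). The 9 let-7 miRNAs, another family of one seed, also varied together, with a median correlation of 0.925, and 0 of 9 were highest in control 3. Of the 2 miR-26 miRNAs, which share a seed too, 0 passed in limma and their correlation was -0.960.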

How the data were processed

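Small RNA of renal cortex was tailed with poly(A), tagged and stained with Cy3 or Cy5 by a service provider, per the labels' protocols. Each deposited spot table has 3968 spots, with 5 for each miRNA probe and 669 empty spots. Per the file headers its values are mean spot intensity on a linear scale. Empty spots lay well above 0, so background was taken as not subtracted. The authors' processed intensity of each miRNA was also deposited, in whole numbers. How it was normalised, centred and scaled stays unknown. Its columns had medians of 17, 19 or between, and each correlated best with its own sample's spot intensity (rho of 0.995 to 0.999, and no more than 0.965 to any other).

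With limma 3.58.1 in R 4.3.3, intensity was background-corrected (normexp, offset 50), averaged over spots as log2 values and quantile-normalised over all miRNA probes, which gives equal ranks equal values. The 197 miRNAs above background in at least 3 samples were fitted with group and dye (two-sided, Benjamini-Hochberg over all 197). Differences within a sample were tested by exact permutation. Alternatives changed the background correction, the scaling between samples, the filter on dim miRNAs, the spot summary, the terms of the fit and the samples, or used the processed values as log2(value + 1). The script was tested on simulated data. Figures were drawn with matplotlib 3.10.9. The number of arrays limits the precision.

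The members and lists were chosen with earlier results of these data known. Named miRNAs were the 5 members, their star strands, probes of the same seed, the 5 miRNAs most correlated with the family mean, and the brightest 2 kidney epithelial miRNAs. The series describes individual mice and 1 replicate per array, and no label explains the shared numbers or says whether samples of opposite dye were read from the same slide. Deviations from group means correlated between same-numbered samples at r = 0.447, 0.460 and 0.781, each above 0.1, which pairs them by the rule used here. Control 1 with treated 2 (0.256) and control 2 with treated 1 (0.246) were over 0.1 too.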

Additional observations from a re-analysis of the deposited data

How the results depend on the processing

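Over 24 alternatives, 0 miRNAs and 0 members passed in limma. The number pairs gave 15 of 197 miRNAs, and no member, an unadjusted p under 0.05 with a replicate block and dye term (19 without the dye term), against 1 without a block. With the block and dye term the members' adjusted p in limma ran from 0.810 to 0.990 at the same differences. In the order miR-30a to miR-30e, their SEs were 0.27, 0.30, 0.32, 0.20 and 0.36, against 0.61, 0.53, 0.52, 0.35 and 0.91 without a block. The width of the intervals thus depends on whether the pairs are used. The fit with the block had 1 residual degree of freedom, and the block changed no call. The members' differences turned above 0, in the order miR-30a, miR-30b, miR-30c, miR-30d, miR-30e, without normalisation between samples (0.69, 0.97, 0.71, 0.59, 0.45), with scaling to the 75th percentile of all probes (0.57, 0.85, 0.59, 0.47, 0.33), in males only (0.23, 0.24, 0.29, 0.18, 0.30) and in Cy5 samples only (0.68, 0.67, 0.34, 0.36, 1.09). Without both samples numbered 3, miR-30a, miR-30b, miR-30c and miR-30d turned to 0.0076, 0.19, 0.17 and 0.064. Cyclic loess turned miR-30a, miR-30b and miR-30d to 0.068, 0.18 and 0.014, and the processed values turned miR-30b and miR-30c to 0.21 and 0.064. Scaling to the 75th percentile of the probes above background in all 6 samples, chosen after seeing the data, turned miR-30b to 0.14 and the lowest correlation between members to -0.474. The median difference moved to 0.69 without normalisation, where that of all tested miRNAs was 0.29, and to 0.67 in Cy5 samples. Leaving out 1 sample, it ran from -0.92 without control 2 to 0.67 without treated 2, 2 fits that rest on the samples of 1 dye. The members then ran from -1.20 to 0.68, -0.92 to 0.67, -0.68 to 0.34, -0.51 to 0.36 and -1.92 to 1.09, and the subgroup difference from 0.10 to 0.42. That difference turned to -0.20 in Cy5 samples and was 0.54 without normalisation and with either 75th percentile scaling, and 0.02 in males only. The cause of these turns was not tested. Signal over background was lowest in treated 2, at 3.67 times the median empty spot for miR-30e, and each group had 3 mice.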
